A study of Mus musculus with 20 samples.

Results

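Pancreatic digestive proteases gave signal above background on bead arrays of muscle from wild-type mice, and less or none on those of mice with mutant TDP-43. The genes described here are the 10 that a list of symbols named: the trypsinogens Try4, Try10 and Gm5409, the chymotrypsinogens Ctrb1 and Ctrl, the elastases Cela1, Cela2a and Cela3b, and the carboxypeptidases Cpa1 and Cpb1. Each is measured by 1 of the 25697 probes on the array, which name 16593 genes in all. The 10 were chosen by their levels and genotype differences on these same muscle arrays, so their genotype difference in muscle is given below as a description and carries no test. The brain arrays come from other mice and were not used in that choice.

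The study profiled male mice on a C57BL/6J background at 17 weeks of age. The mutant mice were heterozygous for a transgene of human mutant TDP-43, an RNA-binding protein, and the controls are labelled heterozygote wt and are called wild type here. Muscle was taken from 8 mice, 4 of each genotype, and brain from 12 other mice, 6 of each, and the labels give every array its own mouse number. The labels name neither the muscle that was taken nor the promoter of the transgene. All 12 of the skeletal muscle markers looked up, such as Ckm, Acta1 and Mylpf, were above background on all 8 muscle arrays. Of 11 brain markers with a probe, 9 were above background on all 12 brain arrays, and Snap25 and Nefl were not above background on any. Muscle arrays had 11469 to 12446 probes above background (detection p under 0.05) and brain arrays 11736 to 12966. Muscle wild type 2 stood apart, with a median raw signal of 118 against 99.9 to 106 on the other 7 muscle arrays.

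Acinar cells of the pancreas make these proteases as inactive zymogens and store them in secretory granules. In the gut, enteropeptidase cleaves trypsinogen, and trypsin then activates the other zymogens. Trypsin cuts after basic residues, chymotrypsin after large hydrophobic ones and elastases after small ones, while carboxypeptidases take single residues off the carboxyl end. Acinar cells transcribe this set together under the PTF1 complex, in which Ptf1a and Rbpjl take part, with help from Nr5a2. RNA of whole tissue was measured, so fewer cells of a type and less RNA per cell cannot be told apart.

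In wild-type muscle all 10 probes were above background on all 4 arrays. In mutant muscle 3 were above background on all 4 arrays (Cela1, Cela2a and Ctrl), 4 on 1 or 2 arrays (Try10, Ctrb1, Cpa1 and Cpb1) and 3 on none (Try4, Gm5409 and Cela3b). The 10 log2 differences, mutant minus wild type, ran from -2.29 to -0.75 with a median of -1.39, where the median over all 11706 muscle probes tested was 0.0079. On normalized levels every mutant lay below every wild-type mouse for 10 of 10 probes, against 1.09% of all probes tested. By limma (adjusted p under 0.05), 8 of 10 were among the probes called lower, against 0.171% of all probes tested; Ctrb1 and Cela3b were not. The choice of genes used this contrast, so nothing is read from either count. Without muscle wild type 2 the differences ran from -2.27 to -0.67 with a median of -1.19, and 5 of the 7 probes then tested were called. Without background correction 1 of the 10 was called, and with median scaling likewise 1. All 10 probes passed the filter on dim probes. Cela1, Cela2a and Ctrl did so on the mutant arrays as well, and the others passed through the wild-type arrays.

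The trypsinogens come first because trypsin activates the rest. Try4, a trypsinogen, had raw signals of 125, 205, 115 and 143 in wild-type muscles 1 to 4 and 94.8, 104, 102 and 108 in mutant muscles 1 to 4. The lowest wild-type value was above the highest mutant value, and no mutant value was above background. On normalized levels wild type was at least 2.31-fold higher. The wild-type mean, 5.80 ± 0.36 (SD, n = 4) on the log2 scale, is set there against the lowest level of a detected probe.

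Try10, another trypsinogen, had raw signals of 147, 210.5, 127 and 172 in wild-type muscles and 103, 113, 99.9 and 112 in mutant muscles. Mutants 2 and 4 were above background and mutants 1 and 3 were not, and the groups did not overlap. Its log2 level was 6.23 ± 0.34 (SD, n = 4) in wild type and 4.63 ± 0.23 (SD, n = 4) in mutants, a difference of -1.60 (SE 0.20).

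Gm5409 carries the synonym Try10l and is a pseudogene in the RefSeq annotation of assembly GRCm38.p6. Its probe read 117, 149, 107 and 128 in wild-type muscles and 97.6, 103, 99.7 and 96.8 in mutant muscles, none of the latter above background. The wild-type mean was at least 1.62-fold higher. Try4, Try10 and Gm5409 lie in 1 cluster of trypsinogen genes on chromosome 6, with 1 protein-coding gene, Try5, starting between Try4 and Try10, and 2, Prss3 and Gm5771, between Try10 and Gm5409. Trypsinogens are close copies of each other, and whether these probes bind RNA of more than 1 of them was not tested.

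Of the chymotrypsinogens, Ctrl had raw signals of 148, 197, 118 and 165 in wild-type muscles and 111, 114, 111 and 110.3 in mutant muscles. All 8 arrays were above background, and the mutant values lay within a narrow band under the lowest wild-type value. The log2 level was 6.08 ± 0.42 (SD, n = 4) in wild type and 4.89 ± 0.14 (SD, n = 4) in mutants, a difference of -1.19 (SE 0.22).

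Ctrb1 had the smallest difference of the 10, -0.75 (SE 0.15), a 1.68-fold higher level in wild type. Its raw signals were 119, 153, 105 and 124 in wild-type muscles and 105, 108, 101 and 107 in mutant muscles. On raw signals the groups overlapped, since wild type 3 lay below mutants 2 and 4, and the groups separated after normalization. Mutant 1 was the 1 mutant muscle above background.

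Of the elastases, Cela2a had the largest log2 difference of the 10 on the scale used here, whose offset shrinks differences of dim probes. Cela2a had raw signals of 318, 594, 232 and 445 in wild-type muscles and 137, 151, 130.1 and 138 in mutant muscles. It was above background on all 8 arrays, and the lowest wild-type muscle stood 80.8 signal units above the highest mutant. The log2 level was 8.17 ± 0.42 (SD, n = 4) in wild type and 5.88 ± 0.13 (SD, n = 4) in mutants, a difference of -2.29 (SE 0.22) or 4.89-fold. On the authors' background-subtracted intensities, which carry no offset, the mutant mean of 43.0 ± 5.61 (SD, n = 4) was 15.3% of the wild-type mean of 281 ± 90.1 (SD, n = 4). By that share Try10, Cela1, Cpa1 and Cpb1 were at 13.7% to 14.5%, close to Cela2a. The chymotrypsinogens Ctrl and Ctrb1 were at a larger part of wild type, of which Ctrl was at 25.5%. For Try4, Gm5409 and Cela3b no mutant muscle was above background, so their shares are not given or ranked. Mutant intensities of Gm5409, for instance, ran from -3.64 to 3.01.

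Cela1 is an elastase that is also transcribed outside the pancreas. It had raw signals of 147, 252, 138 and 179 in wild-type muscles and 106, 109, 110.4 and 109 in mutant muscles. The groups did not overlap, and all 8 arrays were above background. The difference was -1.73 (SE 0.17), or 3.31-fold, and the authors' intensities in mutants averaged 14.5% of wild type, against 25.5% for Ctrl.

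Cela3b, the third elastase, had raw signals of 123, 173, 105 and 132 in wild-type muscles and 95.7, 107, 96.1 and 105 in mutant muscles. Wild type 3 lay below mutant 2 on raw signals, and no mutant was above background. On normalized levels the wild-type mean, 5.45 ± 0.43 (SD, n = 4) on the log2 scale, was at least 1.82-fold higher. This bound holds for the mean and not for each wild-type mouse.

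The carboxypeptidases had nearly equal differences. Cpa1, which removes aromatic and aliphatic residues, had raw signals of 127, 197, 121 and 153 in wild-type muscles and 102, 105, 103 and 109.8 in mutant muscles. Its difference was -1.39 (SE 0.18). Cpb1, which removes basic residues, had raw signals of 131, 232, 113 and 153 in wild-type muscles and 104, 105, 102 and 109 in mutant muscles. Its difference was -1.42 (SE 0.25). For both genes the groups did not overlap and mutant 4 was the 1 mutant muscle above background.

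**Figure D1:**
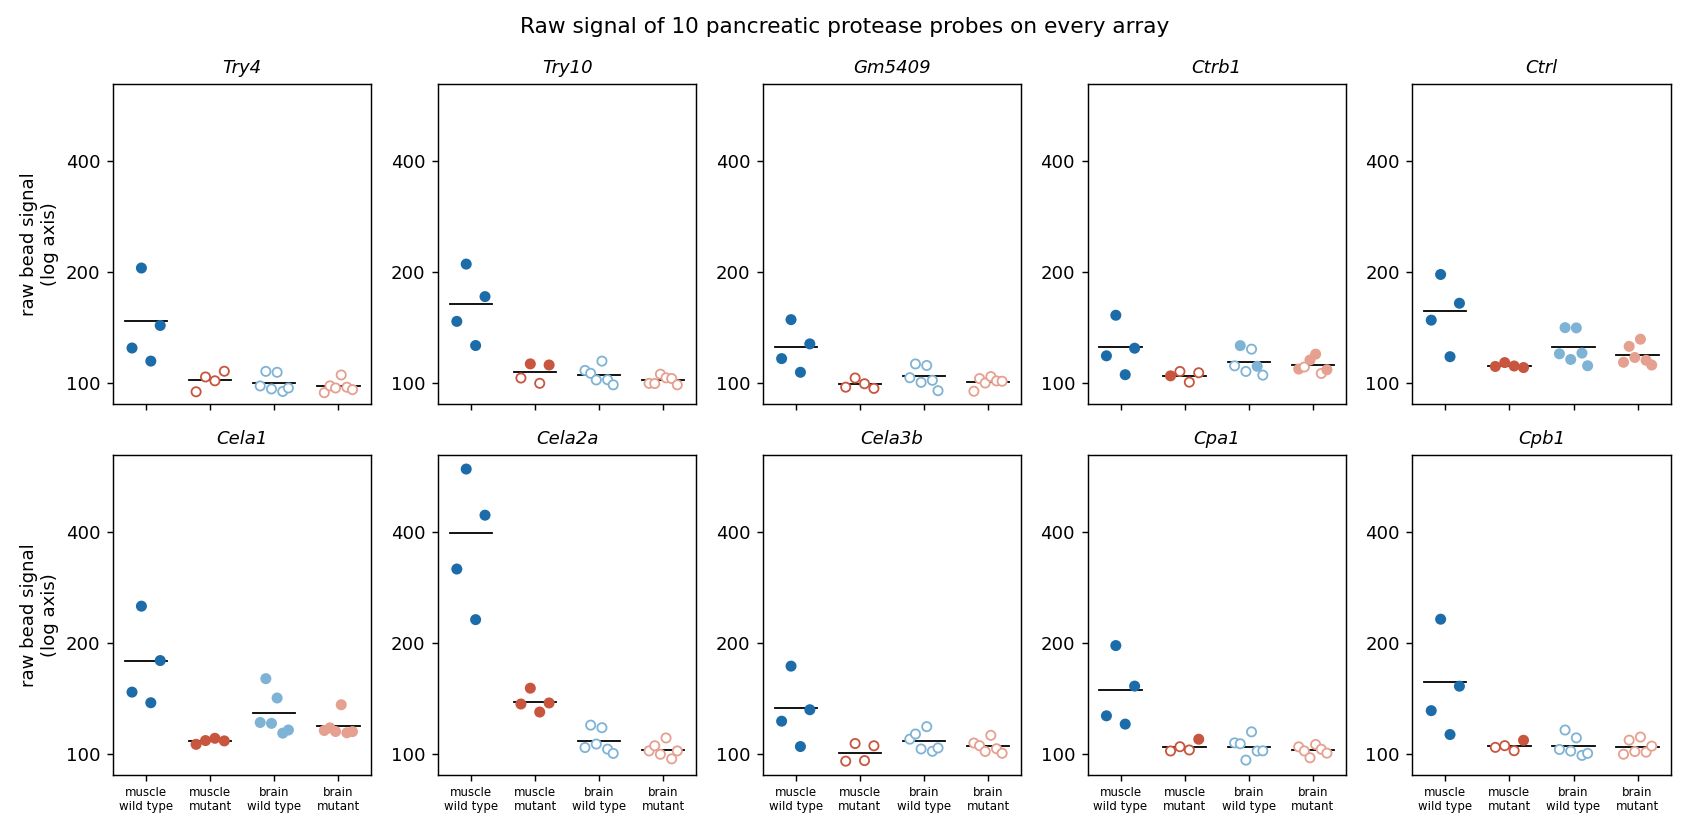
Raw bead signal on a log axis for the 10 protease probes, 1 panel per gene, in muscle (4 mice per genotype) and brain (6 per genotype). Filled points were above background (detection p under 0.05), open points were not, and each line is a group mean. Wild-type muscle has the highest mean in all 10 panels, and Cela2a reaches 594 there.

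Since the 10 genes differed together, the starts of their transcription units were read for motifs named for the acinar programme. RefSeq gives a promoter (250 bases before the start to 50 after it, GRCm38.p6) for 8 of the 10, with none in the table for Try10 and Gm5409. Shown are 1 promoter per enzyme class and that of a further elastase, Cela2a. Capitals mark TATAAA, the E-box CACCTG and the TC-box TTTCCC that together make the PTF1 site, and AAGGTCA, the core that Nr5a2 binds, each on either strand. On the opposite strand CACCTG reads CAGGTG and TTTCCC reads GGGAAA. No 2 of these matches overlap.
Try4, chr6:41302022-41302321, plus strand: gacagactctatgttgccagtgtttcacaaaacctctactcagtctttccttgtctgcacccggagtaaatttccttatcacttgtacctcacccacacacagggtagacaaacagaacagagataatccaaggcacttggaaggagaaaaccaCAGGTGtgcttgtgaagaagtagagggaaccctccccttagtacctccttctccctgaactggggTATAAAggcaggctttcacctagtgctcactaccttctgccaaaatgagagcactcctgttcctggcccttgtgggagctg
Ctrl, chr8:105933813-105934112, minus strand: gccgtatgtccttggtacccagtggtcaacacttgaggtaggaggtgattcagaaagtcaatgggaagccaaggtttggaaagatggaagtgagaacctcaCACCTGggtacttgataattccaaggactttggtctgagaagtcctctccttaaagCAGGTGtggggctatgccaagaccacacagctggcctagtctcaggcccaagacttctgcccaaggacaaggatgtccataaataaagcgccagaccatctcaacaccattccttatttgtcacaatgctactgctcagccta
Cela1, chr15:100687871-100688170, minus strand: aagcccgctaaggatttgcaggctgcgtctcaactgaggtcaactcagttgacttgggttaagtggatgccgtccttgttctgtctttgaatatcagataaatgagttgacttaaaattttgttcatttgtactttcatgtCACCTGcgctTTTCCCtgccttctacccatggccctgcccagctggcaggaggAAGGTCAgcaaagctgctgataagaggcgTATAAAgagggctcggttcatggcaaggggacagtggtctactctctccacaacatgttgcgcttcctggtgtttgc
Cela2a, chr4:141825956-141826255, minus strand: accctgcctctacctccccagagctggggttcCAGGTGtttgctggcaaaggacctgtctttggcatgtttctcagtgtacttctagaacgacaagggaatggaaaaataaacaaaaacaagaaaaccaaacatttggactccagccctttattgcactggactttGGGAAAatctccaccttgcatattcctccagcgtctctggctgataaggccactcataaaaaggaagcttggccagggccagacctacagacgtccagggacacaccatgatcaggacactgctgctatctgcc
Cpb1, chr3:20275684-20275983, minus strand: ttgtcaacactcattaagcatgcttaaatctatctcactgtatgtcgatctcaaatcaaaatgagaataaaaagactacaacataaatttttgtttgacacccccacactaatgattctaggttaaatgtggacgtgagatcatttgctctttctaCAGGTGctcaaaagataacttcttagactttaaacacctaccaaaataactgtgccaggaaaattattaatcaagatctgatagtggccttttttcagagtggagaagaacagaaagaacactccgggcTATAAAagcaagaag

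CACCTG was found in 6 of the 8 promoters (Try4, Ctrl, Cela1, Cela2a, Cela3b and Cpb1), where 20.2% of all 32851 promoters of this length hold it. TTTCCC was in 4 of 8 (Ctrb1, Cela1, Cela2a and Cpa1; 25.2% of all), TATAAA in 3 of 8 (Try4 at -31, Cela1 at -27 and Cpb1 at 36, which is past the transcript's first base; 13.6% of all) and AAGGTCA in 1 of 8 (Cela1; 4.72% of all). Cela1 and Cela2a held both CACCTG and TTTCCC, as 4.86% of all promoters do. In Cela1 the matches start at -109 and -99 relative to the transcript's first base, with AAGGTCA at -56. In Cela2a they start at -218 and -84. These are letter matches in a window and show no binding.

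The 10 genes also moved together between mice of 1 genotype, which the choice of genes did not use. Each muscle level was expressed as its deviation from the mean of its genotype, and each gene was set against the mean of the other 9 over the 8 arrays. Pearson's r ran from 0.68 for Cela1 to 0.94 for Cela2a, with a median of 0.85, and all 45 pairs of genes had an r above 0 (median 0.75, lowest 0.34). Without wild type 4, r was 0.24 for Cela1, 0.36 for Try10, 0.45 for Ctrl and 0.47 for Cpa1, so for these 4 genes r depended on that array. The other 11696 probes tested in muscle had a median r of 0.0099 with the mean of all 10, and 0.539% of them reached 0.85. These values are a description over 8 arrays that share 1 normalization.

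Most of the measured spread came from the wild-type muscles. Only Cela1, Cela2a and Ctrl were above background on all 4 mutant muscles, and the offset of 16 leaves levels near background little room to vary. Wild type 4 had the highest normalized level for 10 of 10 genes and wild type 3 the lowest for 8 of 10, while on raw signals wild type 2 was highest and wild type 3 lowest for 10 of 10. The mean deviation of the 10 genes was 0.43 in wild type 4, 0.066 in wild type 2, -0.11 in wild type 1 and -0.39 in wild type 3. In mutants it stayed between -0.066 and 0.033, and the array that was highest changed from gene to gene. Within wild type the highest muscle exceeded the lowest by 1.58-fold for Cela1 and by 2.03-fold for Cela2a, the extremes among the 10.

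**Figure D2:**
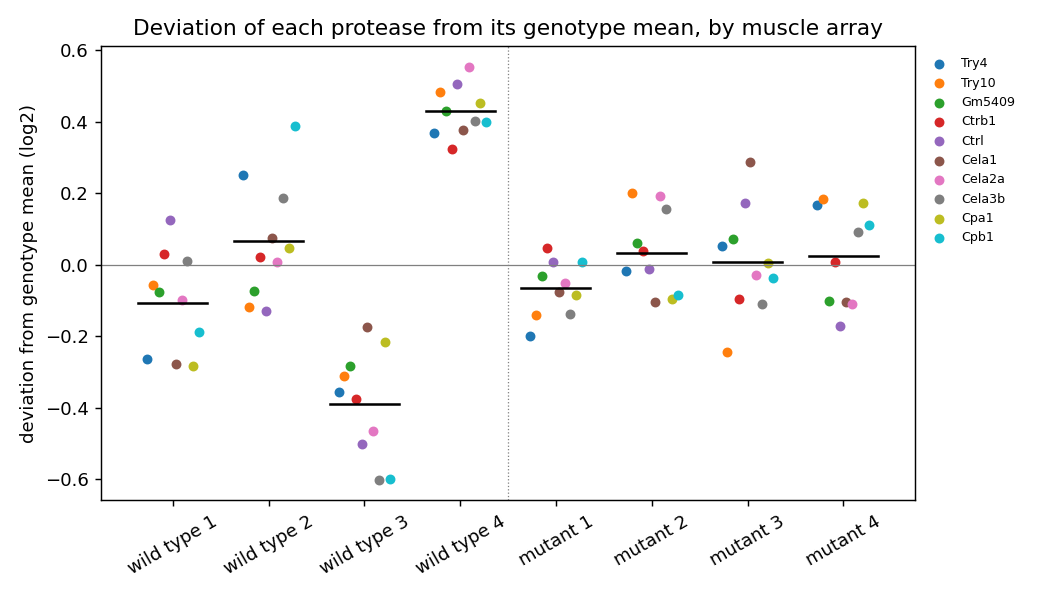
Deviation of each protease's log2 level from the mean of its genotype in each of the 8 muscle arrays (4 wild type, 4 mutant). Points are the 10 genes and the lines their mean, which is 0.43 in wild type 4 and -0.39 in wild type 3 and lies between -0.066 and 0.033 in the mutants. Only Cela1, Cela2a and Ctrl were above background on all 4 mutant arrays, and levels near background can vary little.

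The genes outside the 10 whose deviations were most like theirs were ranked among 11046 named probes. The first 8 were Helq (r = 0.96), Obi1 (0.95), Wwox (0.93), Eml5 (0.93), Sgk1 (0.92), Nubp1 (0.92), Zg16 (0.91) and Ccl24 (0.90). Zg16, a protein of the zymogen granule membrane, was the 1 acinar gene among them and differed by -1.62 in mutant muscle (limma adjusted p = 0.00309). The other 7 differed by -0.10 to 0.13 between genotypes and did not pass (limma adjusted p = 0.999 each).

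Other acinar genes were looked up in lists. Of 14 further pancreatic proteases 9 have a probe, and 1 of these, the trypsinogen Prss2, was above background in all 4 wild-type muscles (raw signals of 103 to 143, against 101 to 103 in mutants, where none was above background). Prss2 differed by -0.53 (limma adjusted p = 0.608) and was the 1 gene of that list tested. Try5, which lies between Try4 and Try10, was above background in 3 wild-type mice and 0 mutants and was not tested. Spink1, a trypsin inhibitor of the zymogen granule, was above background in all 4 wild-type mice but in 2 mutants, and differed by -0.83 (limma adjusted p = 0.235).

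Among 18 acinar secretory products with a probe, 10 were tested, 7 passed the limma threshold lower in mutants and 0 higher, against 0.171% of all probes tested called lower. The median over their 12 probes was -1.34. These lists were drawn up with earlier results known, so the count is no independent evidence. Of the 4 named by their raw signal in wild-type muscle, the amylase Amy2a5 fell by 1.70 (limma adjusted p = 0.00309), the lipase cofactor Clps fell by 1.60 (0.00830) and Zg16 fell by 1.62 (0.00309). Amy1, the amylase transcribed in salivary gland and liver, differed by -0.012 (limma adjusted p = 0.999).

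Markers of other cell types were counted beside the proteases. Of 7 acinar transcription factors with a probe, none was above background on all 4 wild-type muscles, and 4, Ptf1a and Rbpjl among them, were above it on 0 of 8. A probe of Nr5a2 was detected in 2 mice of each genotype, and Gata6 and Bhlha15 each on 1 wild-type muscle and 0 mutants. Of 10 islet markers, 0 were above background on all 4 muscles of either genotype, and 7, the hormone genes Ins2, Gcg, Ppy and Iapp among them, were above it on none of the 8. Nkx6-1 and Pdx1 were each above background on 1 wild-type muscle, and Sst on 1 mutant muscle. Of 8 pancreatic duct markers 0 were above background on all 4 muscles of either genotype and 4 were on none of the 8. Over their 11 probes there were 12 detections of 44 possible in wild type and 5 of 44 in mutants. Krt8 was above background on 3 wild-type muscles and 1 mutant, Tff2 on 2 and 0, and Krt7 on 1 and 0. The probes of Muc1 disagreed, with 3 wild-type and 0 mutant muscles for 1 probe and 1 and 3 for another. What part duct cells have in the protease difference was not tested. The summed normalized intensity of the islet list was 193 to 207 in wild-type and 192 to 200.03 in mutant muscle, and that of the duct list 164 to 182 and 159.9 to 176.

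The same sum over the 3 trypsinogens was 136 to 229.5 in wild-type muscle and 60.4 to 70.5 in mutant muscle. In brain, where none of the 3 was above background, it was 55.6 to 57.4 in wild type and 55.2 to 58.0 in mutants. Brain was normalized apart from muscle, so the sums of the 2 tissues are not on the same scale, and much of each is the offset. In muscle the sum over the 18 acinar secretory products was 957 to 1404 in wild type and 565 to 734 in mutants. Over the 12 skeletal muscle markers, 0 of which passed, it was 195239 to 212688 and 197497 to 205617. Quantile normalization gives every array the same set of brightest levels, so a sum over probes this bright could differ little between genotypes. Mast cells are another source of Cpa-type and serine proteases in tissue. Their proteases were looked up in a list of 11 from mast cells and leukocytes. Cpa3, Mcpt4, Tpsb2 and Cma1 were above background on all 8 muscle arrays by their brightest probe. Of the 11, 5 were above background on no muscle array, and Tpsab1 was on 1 wild-type and 3 mutant muscles. Of the list's genes 5 were tested and 0 passed. The sum over all 11 was 286 to 370.1 in wild type and 263 to 388 in mutants. Salivary and lacrimal markers were above background on all 4 muscles for 0 of 7 genes in either genotype. Liver and gut markers were so for 1 of 9 genes in wild type and 2 of 9 in mutants, with 0 passing. Of the 9, 6 were above background on no muscle array, the liver marker Alb among them. Over the 12 probes of this list there were 9 detections of 48 possible in wild type and 17 of 48 in mutants. Serpina1b was detected on 1 wild-type and 4 mutant muscles by 1 probe, and on 0 and 3 by another. Ttr was detected on 0 wild-type and 2 mutant muscles. Adipocyte markers summed to 758 to 1353 in wild type and 615 to 1925 in mutants, and blood markers to 6181 to 14192 and 6701 to 15357, with 0 genes passing. What part pancreatic tissue carried with the muscle has in the protease signal was not tested.

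**Figure D3:**
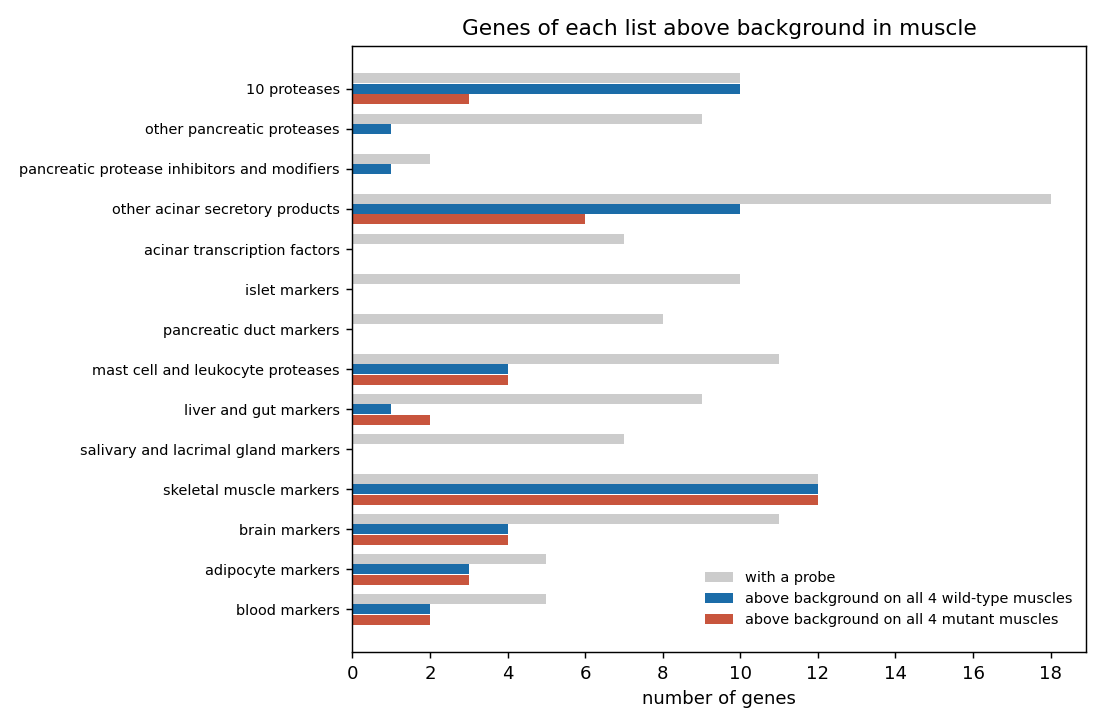
Number of genes with a probe (grey), above background on all 4 wild-type muscles (blue) and above background on all 4 mutant muscles (red), for the 10 proteases and 13 further lists. The proteases go from 10 to 3 and the other acinar secretory products from 10 to 6, and the muscle markers stay at 12. The islet, duct and acinar transcription factor lists are at 0 by this count of all 4 arrays, although some of their genes were above background on 1 to 3 arrays of a genotype.

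In brain, where the genotype difference was not used to choose the genes, 3 of the 10 probes passed the filter, and 0 of the 3 passed the limma threshold or had an unadjusted p under 0.05. Of all 12423 brain probes tested, 0.00805% were called. The other 7 were above background on 0 of 12 brain arrays. Cela1 was above background on 12 of 12 brains, with raw signals of 114 to 160.3 (median 122) in wild type and 114 to 136 (median 116) in mutants. The ranges overlapped, with a log2 difference of -0.053 (95% interval -0.34 to 0.23, limma adjusted p = 0.955).

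Ctrl was above background on 12 of 12 brains, at 112 to 142 (median 120.4) in wild type and 112 to 132 (median 116) in mutants, and differed by 0.067 (95% interval -0.12 to 0.25, limma adjusted p = 0.898). Ctrb1 was above background on 2 wild-type and 4 mutant brains, at 105 to 126 (median 111) and 106 to 119.9 (median 109.9), and differed by 0.12 (95% interval -0.063 to 0.31, limma adjusted p = 0.811). Exact two-sided permutation tests over the 12 mice, 3 in all and unadjusted, gave p = 0.693 for Cela1, 0.314 for Ctrl and 0.0996 for Ctrb1.

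**Figure D4:**
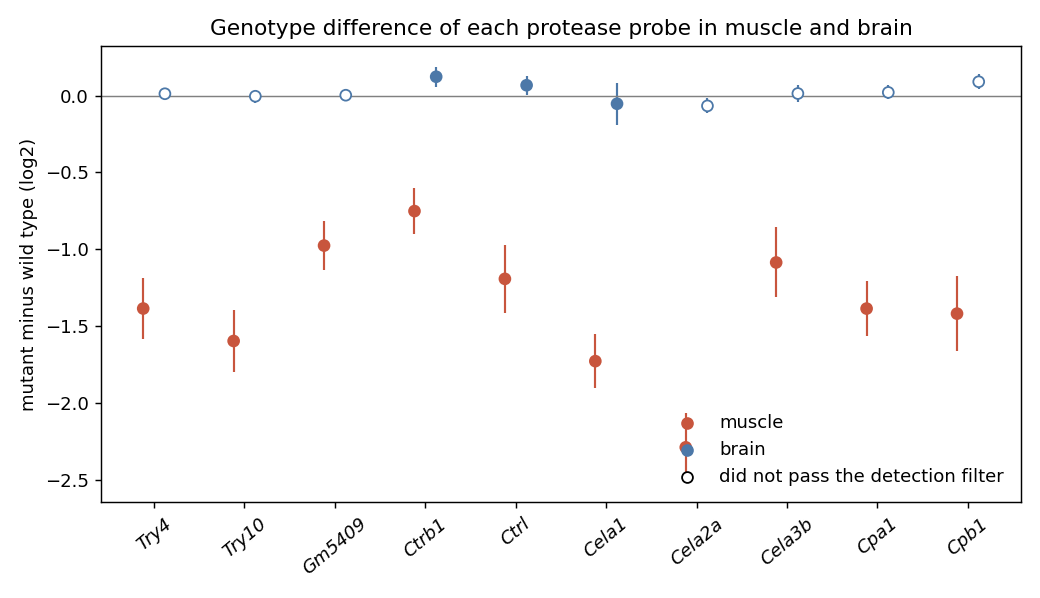
Mutant minus wild-type difference in log2 level for each protease in muscle (4 against 4 mice) and brain (6 against 6 mice), with bars of 1 standard error from the group SDs. Open points did not pass the detection filter. Muscle differences lie between -2.29 and -0.75 and brain differences near 0.

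Levels over the 4 groups were compared after normalizing all 20 arrays together. Wild-type muscle had the highest mean for all 10 genes, beyond the larger SD of the neighbouring group in each case. Mutant muscle came next for 8 genes, and its distance from brain exceeded the larger SD for Try4, Try10, Cela2a, Cpa1 and Cpb1. That distance was 1.65 for Cela2a and 0.25 to 0.44 for the other 4 of these. Cela2a was above background on all 4 mutant muscles, Try10 on 2, Cpa1 and Cpb1 on 1 each and Try4 on 0. None of these genes was above background on any brain array, so apart from Cela2a the distances lie near background. For Gm5409, Ctrl and Cela3b mutant muscle and brain did not differ beyond their spread. Both brain groups for Cela1, and mutant brain for Ctrb1, had higher means than mutant muscle, with gaps between neighbours within the spread. The order of the 2 brain genotypes was within the spread for all 10.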

How the data were processed

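The labels' protocols give Trizol extraction, clean-up on an RNeasy kit and biotin labelling with the Ambion kit for Illumina arrays, and the submitters' processing notes name GenomeStudio 2011.1. The deposited table holds unnormalized signal intensity without background subtraction, paired for every array with the deposited detection p-value. A second deposited table, of processed and background-subtracted intensity on a linear scale, is the authors' own and served as an alternative.

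Each tissue was normalized apart with neqc (limma 3.58.1, R 4.3.3): normexp background correction, an offset of 16, quantile normalization and log2. The negative controls it needs were derived from the detection p. The offset shrinks differences of dim probes, and the number of arrays limits the precision. Tests covered probes with a detection p under 0.05 on 4 or more of the muscle arrays, or 6 or more of the brain arrays. Genotypes were compared by limma (lmFit, eBayes) with Benjamini-Hochberg adjustment over all probes tested, and the fit was tested on simulated data. SEs in muscle come from the group SDs. Where a group has no array above background, the fold is a bound: the brighter mean against, per array, the lowest level of a detected probe or the probe's own, whichever is higher. Summed intensities add the unlogged normalized levels of a list's genes, each by its brightest probe. Every gene brings the offset of 16 into the sum, detected or not.

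The genes and lists were chosen with earlier results of these data known. Named genes were the 10 proteases, up to 4 per list by raw signal in wild-type muscle, and the 8 genes most like the proteases by r. Rbpjl, Pdx1, Sst, Gcg, Ppy, Iapp, Alb, Snap25 and Nefl were named after their values were seen.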

Additional observations from a re-analysis of the deposited data

Results flagged for a closer look

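Of 40 sets of values (10 genes in 4 groups), 2 held a sample far from the others by Dixon's test, which chance does in about 1 in 20 groups. Cela1 was at 5.02 in muscle mutant 3, against 4.63 to 4.65 in the other mutant muscles, a gap of 92.8% of the group's range. The Gm5409 level of 4.19 in wild-type brain 6 lay under those of the other wild-type brains (4.24 to 4.27), and no brain was above background for this gene.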

How the results depend on the processing

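The protease differences in muscle stayed below 0 for all 10 genes in all 18 alternatives, with medians of -1.52 to -1.19 leaving out single arrays, -0.45 without background correction and -0.72 with an offset of 50, where less of the background is taken off or more is added. Of the 10, 8 were called in the main fit, 1 without background correction and 1 with median scaling. There were 2 calls with no detection filter, 3 with an offset of 50 and 5 when replicate numbers entered as a block. Leaving out 1 wild-type array left 7 of the 10 tested, since the filter still asked for 4 arrays. Of these 7, 4 to 7 were called (4 without wild type 1 or 4). Leaving out 1 mutant array left all 10 tested and 5 called. Cela2a was called in 18 of 18 alternatives and Cela3b in 0 of 18, some of which left it out by the detection filter. These calls reuse the muscle contrast and arrays from which the genes were chosen, so nothing is read from them. Over all muscle probes, 21 were called. This number fell to 3 without background correction, to 2 with median scaling, to 8 with an offset of 50, 8 with no detection filter, 8 with detection on every array, 12 with the replicate block and 12 to 18 leaving out single arrays. In brain 1 probe was called. This became 2 without background correction, 2 with an offset of 50, 2 with detection on every array and 5 with array weights. It was 0 with the replicate block, with 1201 unadjusted limma p-values under 0.05 against 870 in the main fit. Leaving out any single array gave 1. No protease was called in brain under any alternative that tested it (limma adjusted p of 0.581 to 0.996). Signs turned for Ctrl with median scaling (-0.031, where the median of all brain probes moved to -0.20) and for Cela1 with array weights (0.029) and without brain wild type 2 (0.022, within -0.13 to 0.022 leaving out single arrays). The cause was not tested. The replicate numbers showed no consistent pairing of the samples. Deviations of same-numbered arrays correlated at -0.25 to 0.10 in muscle and -0.070 to 0.62 in brain. Brain wild types 2 and 3 and muscle wild type 3 correlated best with their own number, and the other wild types did not. Whether some arrays shared a batch by number was not tested. The replicate number as a block changed no protease call in brain. The median r between the proteases was 0.73 to 0.90 leaving out single arrays, lowest without wild type 4. At signals this near background, the 7 proteases not detected in brain have no measured difference there.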
